A study of Mus musculus with 12 samples.

Results

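Cirbp and Rbm3 are the cold-inducible RNA-binding protein genes of the mouse, and this account follows their mRNA in ATDC5 cells after 10 min of exposure to 37 °C, 40 °C or 44 °C. Both were taken by gene name, which gave 2 of the 54532 genes of the deposited count table. ATDC5 is a mouse line that the labels describe as wild-type cartilage progenitor cells, and all 12 libraries come from this line. Cells grew in high-sugar DMEM with fetal bovine serum at 37 °C under CO2, and 4 biological replicates each were then kept at 37 °C, moved to 40 °C or moved to 44 °C. The interval between exposure and RNA extraction is not given in the sources used here. The series asks how temperature affects chondrocyte growth.

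CIRBP and RBM3 are small RNA-binding proteins with a single RNA recognition motif followed by a glycine-rich tail. In mammalian cells their mRNAs accumulate under mild cooling and decline with warming, and both proteins bind mRNAs and affect their stability and translation. The response involves transcription, for which Sp1 binding to the Cirbp promoter has been reported, and splicing, in which transcripts that carry a premature stop are degraded. CIRBP has been reported to bind mRNAs of clock genes in mouse fibroblasts and so links body temperature rhythms to the circadian clock.

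Cirbp (ENSMUSG00000045193, protein coding) lies on the plus strand of chromosome 10, from 80165985 to 80172786 on mm10, as the deposited table gives it. Rbm3 (ENSMUSG00000031167, protein coding) lies on the minus strand of chromosome X, from 8138975 to 8145880. GENCODE M21 gives both genes the same coordinates. It lists 7 Cirbp transcripts, of which 2 are protein coding, 1 is a target of nonsense-mediated decay and 4 retain an intron. It lists 11 Rbm3 transcripts, of which 6 are protein coding, 2 are nonsense-mediated decay targets and 2 retain an intron. Deposited counts sum over all transcripts of a gene, so productive and unproductive forms cannot be told apart.

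The promoter sequence of Cirbp is shown because the mild cold responsive element has been mapped in that promoter. The stretch is on GRCm38.p6, plus strand, from RefSeq, and ends just before the first annotated exonic base upstream of the transcription start at 80167839. It lies within the annotated gene, which begins further upstream at 80165985. Capitals mark the mild cold responsive element TCCCCGCC and the GC box GGGCGG, on either strand.
Cirbp promoter, chr10:80167589-80167777: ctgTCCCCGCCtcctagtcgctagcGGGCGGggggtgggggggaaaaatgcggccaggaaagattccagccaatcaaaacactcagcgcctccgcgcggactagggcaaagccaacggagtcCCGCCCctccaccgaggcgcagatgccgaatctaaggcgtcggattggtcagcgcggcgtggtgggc
In the full window of 300 bases around this start, TCCCCGCC occurred 1 time, 247 bases before the start, and GGGCGG occurred 3 times, with no overlap between the motifs. Among 32851 promoter windows of the same length, 5.38% held TCCCCGCC and 35.7% held GGGCGG on either strand. The heat shock element cores GAANNTTC and TTCNNGAA, present in 7.86% and 8.52% of windows, and the E-box CACGTG, present in 7.15%, had no match in this window. A further Cirbp window, for the start at 80168171, held GGGCGG 4 times and none of the other motifs. These matches are letters in a window and are not measured binding. For Rbm3 the name only is given.

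Total counts lay between 16269026 and 19506705 per library, and 14424 genes passed the filter on low counts, both members among them. Of 12 heat shock genes used to check the exposure, 4 were higher and 1 was lower at 44 °C than at 37 °C. Among all genes tested, 6.58% were higher and 7.11% lower. The gene of HSP27, Hspb1, rose to 221 ± 22.8 CPM at 44 °C, against 71.3 ± 7.77 CPM at 37 °C (SD, n = 4 each; adjusted p = 2.94e-07). CPM here are read counts scaled to a common TMM library size. The inducible HSP70 genes Hspa1b (log2 fold change 1.12, adjusted p = 6.56e-06) and Hspa1a (2.57, adjusted p = 7.51e-05) also rose, with an uncertain division of reads between these near-identical copies. Cryab rose too (0.50, adjusted p = 0.0018) and the co-chaperone gene Bag3 fell (−0.30, adjusted p = 0.00929). The other 7 did not pass, among them Dnajb1 (0.03), Hspa8 (−0.15) and Hsp90ab1 (−0.09). At 40 °C against 37 °C none of the 12 was called, as for all genes tested. There Hspa1a (0.79) and Hspa1b (0.25) had groups that did not overlap, as had 3.83% of all genes, while those of Hspb1 (−0.10) overlapped. Of the chondrogenic markers, Sox9 had 54.2 ± 10.2 CPM and Sox5 8.17 ± 1.44 CPM at 37 °C. Col2a1 (1.21 ± 0.230 CPM) and Acan (2.13 ± 0.420 CPM) were low, and Matn1 had no read in any library. The 7 chondrogenic markers summed to 54.0 to 80.9 CPM in the 37 °C libraries, 42.8 to 69.5 CPM in those of 40 °C and 41.7 to 81.2 CPM in those of 44 °C. Among markers of other cell types, Adgre1, Adipoq, Lep, Myod1 and Myog had no read in any library and Ptprc had 1 read in all. Of the same lists, Fabp4 had 100 reads, Acta1 97, Lyz2 18, Csf1r 8 and Plin1 4 over the 12 libraries. Acta1, a muscle actin gene, averaged 0.380 CPM at 44 °C, against 0.723 CPM at 37 °C, and Fabp4 averaged 0.729 CPM at 44 °C, against 0.485 CPM at 37 °C. The 4 endothelial markers summed to 4.07 to 5.78 CPM at 44 °C, against 2.18 to 3.30 CPM at 37 °C. Of them, Pecam1 (1.14, quasi-likelihood adjusted p = 0.0101) and Cdh5 (1.26, adjusted p = 0.0428, 95 reads in all) rose at 44 °C. Kdr did not pass (0.45, adjusted p = 0.413). Tek, with 26 reads in all, averaged 0.0444 CPM at 44 °C, against 0.206 CPM at 37 °C. The 5 macrophage markers, carried by the lysosomal gene Cd68, summed to 26.7 to 39.9 CPM in the 37 °C libraries, 20.8 to 29.0 CPM in those of 40 °C and 18.5 to 30.6 CPM in those of 44 °C. The 4 epithelial markers, mostly Krt18, summed to 97.0 to 121 CPM at 44 °C, against 84.4 to 104 CPM at 37 °C. The part of these genes in the results was not tested.

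Cirbp was a gene of middling abundance. Replicates 1 to 4 held 396, 256, 241 and 309 reads at 37 °C, 241, 167, 230 and 253 reads at 40 °C, and 317, 181, 252 and 214 reads at 44 °C. Scaled levels were 20.0, 15.5, 14.2 and 18.4 CPM in the 37 °C group, 14.4, 10.6, 12.0 and 14.4 CPM in the 40 °C group, and 18.5, 11.0, 14.8 and 12.2 CPM in the 44 °C group. The highest 2 values at 37 °C stood in replicates 1 and 4, and replicate 1 at 44 °C (18.5) lay between them. The group means were 17.0 ± 2.63 CPM for 37 °C, 12.8 ± 1.89 CPM for 40 °C and 14.1 ± 3.32 CPM for 44 °C (SD, n = 4 each). The mean was therefore highest at 37 °C and lowest at 40 °C, and the values of every pair of temperatures overlapped.

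Rbm3 was the more abundant gene. Its libraries held 3850, 3500, 3762 and 3448 reads at 37 °C, 3375, 3567, 3648 and 3222 reads at 40 °C, and 2978, 3142, 3195 and 3698 reads at 44 °C. Scaled levels were 194, 212, 222 and 206 CPM in the 37 °C group, 201, 226, 189.9 and 184 CPM in the 40 °C group, and 174, 191, 187 and 211 CPM in the 44 °C group. Of the libraries at 44 °C, 3 lay below all those at 37 °C, and replicate 4 lay among them. The means were 209 ± 11.7 CPM for 37 °C, 200.2 ± 18.6 CPM for 40 °C and 191 ± 15.5 CPM for 44 °C (SD, n = 4 each), so their order ran down with temperature. Neighbouring means differed by less than the SD of either group at each step.

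**Figure D1:**
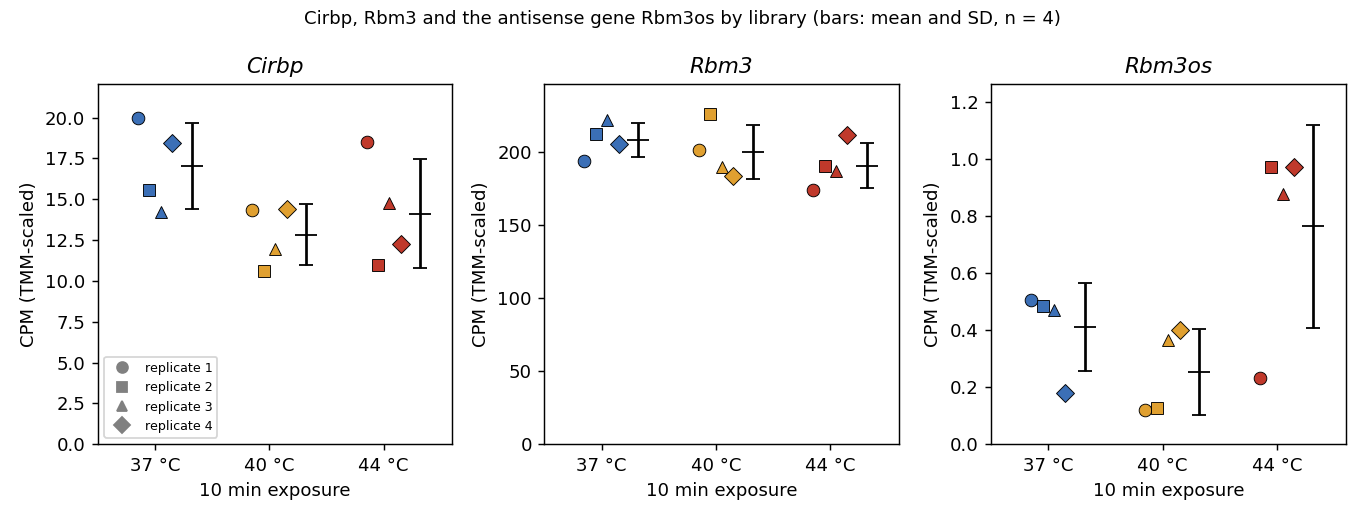
Levels of Cirbp, Rbm3 and the antisense gene Rbm3os in CPM on TMM-scaled library sizes, by exposure temperature; symbols stand for replicates 1 to 4 and bars for the mean and SD (n = 4). Cirbp lies between 10.6 and 20.0 CPM and Rbm3 between 174 and 226 CPM, and the temperatures overlap for both.

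Per length of the gene's annotated exons, Rbm3 was the more abundant of the pair in every library. Cirbp levels were 6.54 ± 1.01 CPM per kb in the 37 °C group, 4.93 ± 0.726 in the 40 °C group and 5.42 ± 1.27 in the 44 °C group. Rbm3 levels were 44.4 ± 2.48 CPM per kb in the 37 °C group, 42.6 ± 3.96 in the 40 °C group and 40.6 ± 3.31 in the 44 °C group (SD, n = 4 each). At 37 °C this placed Rbm3 at the percentile 91.3 of the genes tested and Cirbp at the percentile 52.0. The ratio of Rbm3 to Cirbp per kb, which does not depend on library scaling, was 5.39, 7.58, 8.65 and 6.18 in the 37 °C group, 7.76, 11.8, 8.79 and 7.06 in the 40 °C group and 5.21, 9.62, 7.03 and 9.58 in the 44 °C group. The ratio averaged 6.95 ± 1.45 for 37 °C, 8.86 ± 2.11 for 40 °C and 7.86 ± 2.14 for 44 °C, with overlap between all temperatures. These per-length levels use 2604 bases for Cirbp and 4698 bases for Rbm3, which join the exons of all transcripts, so the isoforms in use could shift the ratio.

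After 10 min at 44 °C neither gene differed from 37 °C beyond the spread between libraries. Cirbp had a log2 fold change of −0.27 ± 0.16 (SE) with a 95% interval from −0.61 to 0.07 (edgeR's quasi-likelihood test, adjusted p = 0.264). Rbm3 had −0.13 ± 0.073, with an interval from −0.28 to 0.03 (quasi-likelihood adjusted p = 0.247). In percent, the intervals ran from −34.6 to 4.88 for Cirbp and from −17.8 to 1.87 for Rbm3, so a 2-fold change in either direction lay outside both. Of the 16 pairs formed by a library at 44 °C and one at 37 °C, Cirbp was lower at 44 °C in 12 and Rbm3 in 14. In this comparison 13.7% of the genes tested were called, 6.58% as higher and 7.11% as lower, and 17.8% had groups that did not overlap. In these bulk libraries a lower value could come from fewer cells with the transcript or from less of it per cell, which cannot be told apart.

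The 44 °C value of Cirbp rested on its libraries. Without 44 °C replicate 1, the library with the highest Cirbp level of its group, the log2 fold change was −0.43 and passed the test (adjusted p = 0.0485, over alternatives 0.0119 to 0.551, where 22.9% of all genes passed without this library). Without 44 °C replicate 2, the lowest of its group, it was −0.17. Rbm3 lay between −0.18 and −0.08 when each library was left out in turn and did not pass in any of these fits.

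At 40 °C Cirbp had its largest difference from 37 °C, but 0% of the genes tested were called in that comparison and 3.83% had groups that did not overlap. The log2 fold change of Cirbp was −0.41 ± 0.16 (SE), with an interval from −0.75 to −0.07 and an adjusted p = 0.823 by edgeR's quasi-likelihood test. Cirbp was lower at 40 °C in 14 of 16 pairs of libraries. Of the 14424 genes, 752 had an unadjusted p under 0.05, Cirbp among them at rank 309, and DESeq2 called 4 genes (0.0277%). Rbm3 had −0.06 ± 0.073 (interval −0.21 to 0.10, adjusted p = 0.872), lower at 40 °C in 11 of 16 pairs. The comparisons at 40 °C and 44 °C share their 37 °C libraries.

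Between the heated groups the members had values of opposite sign, and neither passed. For 44 °C against 40 °C, Cirbp had a log2 fold change of 0.14 ± 0.16 (SE, interval −0.21 to 0.48, adjusted p = 0.691) and Rbm3 had −0.07 ± 0.073 (interval −0.22 to 0.09, adjusted p = 0.648), where 5.02% of genes were called, 1.88% as higher and 3.14% as lower. Without 44 °C replicate 1 the sign of Cirbp turned, to −0.022 (adjusted p = 0.949, with 8.65% of genes called). A joint test over the 3 temperatures gave adjusted p = 0.22 for Cirbp and 0.467 for Rbm3, with 8.21% of genes called.

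**Figure D2:**
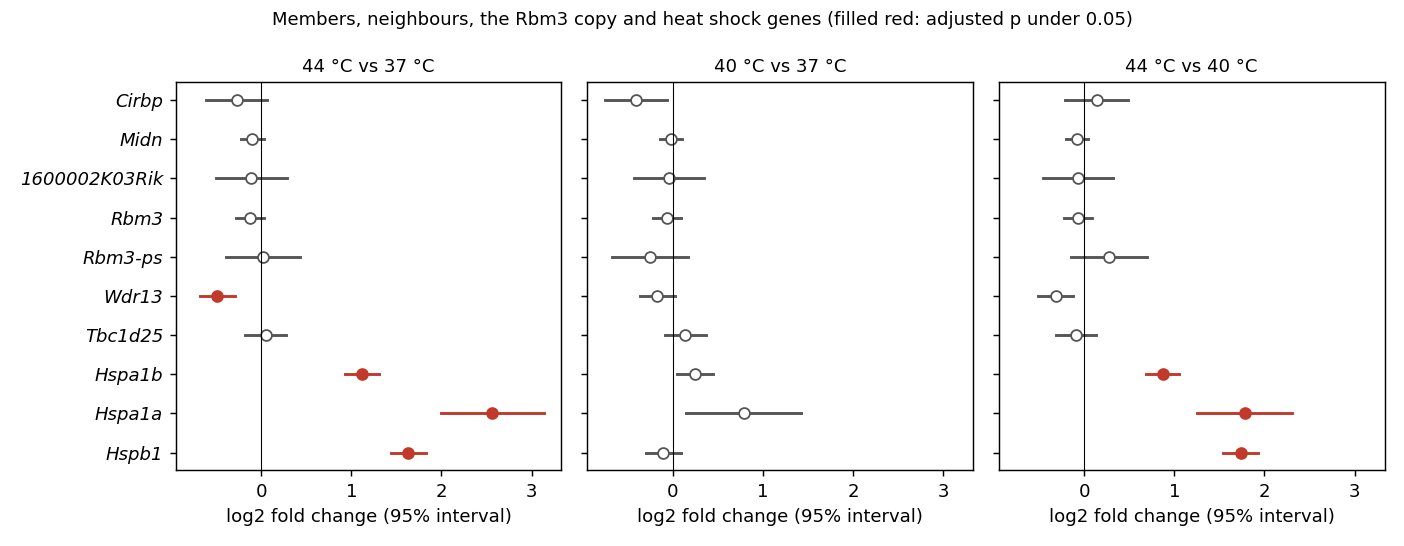
Log2 fold changes with 95% intervals for Cirbp, Rbm3, their neighbours, the processed copy Rbm3-ps and heat shock genes in the 3 comparisons; filled red symbols passed an adjusted p of 0.05. Cirbp (−0.27) and Rbm3 (−0.13) lie left of 0 for 44 °C against 37 °C, as they do for 40 °C against 37 °C (−0.41 and −0.06), and no member passed.

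The spread between replicates of a group was larger than counting error for both members. The coefficient of variation of Cirbp was 15.5% in the 37 °C group, 14.7% in the 40 °C group and 23.5% in the 44 °C group, where counting alone gives 5.77%, 6.70% and 6.44%. For Rbm3 it was 5.59%, 9.30% and 8.14% in the same order, where counting gives 1.66%, 1.70% and 1.75%. Counting error is a floor here, because PCR copies were not told apart.

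Within the temperature groups Cirbp and Rbm3 varied in opposite directions. At 37 °C the order of the 4 libraries by Cirbp was the exact reverse of their order by Rbm3, and 44 °C replicate 1 had both the highest Cirbp and the lowest Rbm3 of its group. On deviations of log2 CPM from the group means, the 2 genes had Pearson r = −0.756 over 12 libraries (Spearman's rho −0.790; exact permutation within groups p = 0.0134, adjusted p = 0.0134 over 3 relations). Within single groups r was −0.969 for 37 °C, −0.713 for 40 °C and −0.740 for 44 °C, each over 4 libraries and given as a description. Without removing the group means the relation was weaker, at r = −0.336 (permutation p = 0.284, adjusted p = 0.284) and rho = −0.343 (permutation p = 0.277, adjusted p = 0.277). It was −0.118 without the 2 libraries farthest from the median Cirbp level. Among all genes tested, 13.5% had an r with the deviations of Cirbp as low as that of Rbm3 or lower.

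Both genes followed the axis along which the libraries differed most within their groups. This axis is the first component of the deviations of log2 CPM from the group means over all genes other than the 2 members, and it held 29.8% of that variance. The highest scores were those of replicate 1 at 44 °C (1.58), replicate 1 at 37 °C (1.12) and replicate 4 at 40 °C (1.03). The lowest were those of replicate 2 at 40 °C (−1.55), replicate 2 at 44 °C (−1.17) and replicate 4 at 44 °C (−1.03). The deviations of Cirbp rose along it with r = 0.927 (exact permutation within groups p = 0.000289, adjusted p = 0.000543) and those of Rbm3 fell along it with r = −0.903 (exact permutation p = 0.000362, adjusted p = 0.000543). On log2 CPM with group means left in, r was 0.740 for Cirbp (permutation p = 0.00632, adjusted p = 0.00948) with rho = 0.748 (permutation p = 0.00715, adjusted p = 0.0107). For Rbm3 it was −0.791 (permutation p = 0.00276, adjusted p = 0.00828) with rho = −0.769 (permutation p = 0.0051, adjusted p = 0.0107). Without the 2 libraries farthest out on the axis these were 0.585 and −0.608. On deviations, 3.97% of all genes tested had an r with the axis as high as that of Cirbp or higher. A share of 6.44% had one as low as that of Rbm3 or lower. Values of this size were common in these libraries, since 12.7% of all genes had an r of at least 0.9 with the axis in either direction.

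**Figure D3:**
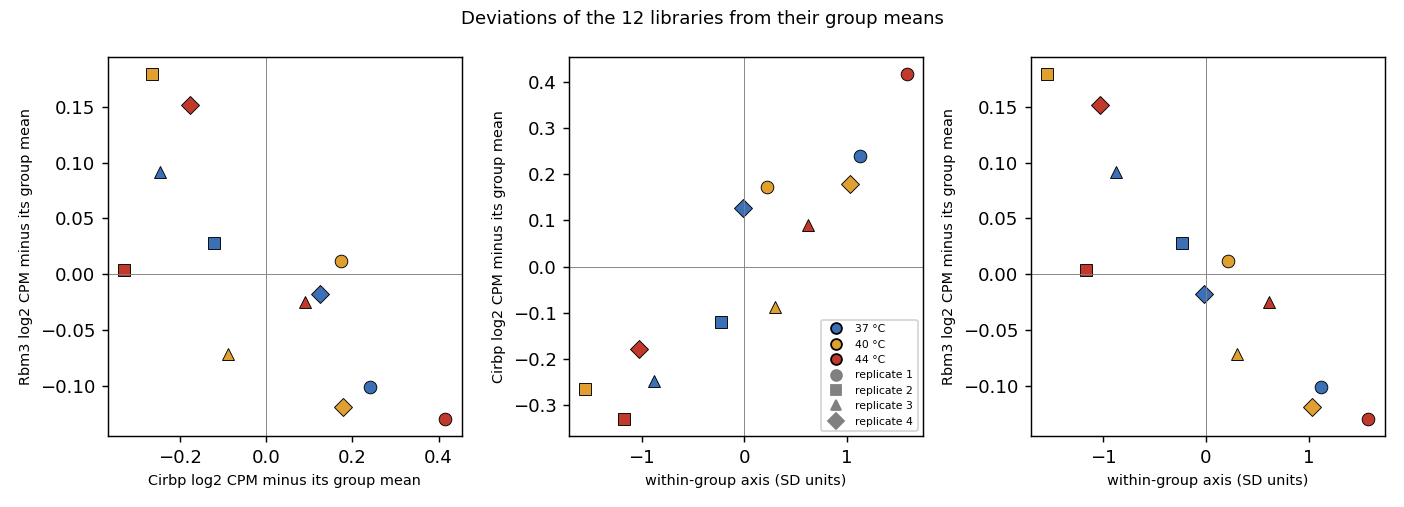
Deviations of log2 CPM from the group mean for Rbm3 against Cirbp, and for each gene against the within-group axis, in 12 libraries; colours give the temperature and symbols the replicate. Rbm3 runs down as Cirbp runs up (r = −0.756), and along the axis Cirbp rises (r = 0.927) while Rbm3 falls (r = −0.903).

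Scores of this axis average 0 in each group, so entering them in the fit could reduce the errors but not move the temperature differences by much. Cirbp had a log2 fold change of −0.29 ± 0.086 (SE) at 44 °C against 37 °C (adjusted p = 0.0119) and Rbm3 had −0.13 ± 0.038 (adjusted p = 0.011), both lower at 44 °C, in a fit that called 34.9% of all genes. At 40 °C against 37 °C, Cirbp had −0.41 ± 0.087 (adjusted p = 0.0102, range over its alternatives 0.0102 to 1) in a fit that called 4.13% of all genes, and Rbm3 had −0.06 (adjusted p = 0.404). The axis was built from the same residual spread that the test uses, so these p-values are too small.

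The values parted when the axis scores kept the differences between the groups, an alternative chosen after seeing the data. On these scores 3 of 4 libraries at 44 °C lay below 3 of 4 at 37 °C, with 1.07, −1.50, 0.164 and −1.37 at 44 °C, against 1.47, 0.210, −0.398 and 0.408 at 37 °C. With them as a covariate, Rbm3 had a log2 fold change of −0.21 ± 0.041 (SE) at 44 °C against 37 °C and passed (adjusted p = 0.00065, range over its alternatives 0.00065 to 0.453). Cirbp had −0.088 ± 0.092 and did not pass (adjusted p = 0.549), in a fit that called 21.8% of all genes. At 40 °C against 37 °C, Cirbp had −0.31 (adjusted p = 0.2) and Rbm3 had −0.10 (adjusted p = 0.349), and 0.0763% of genes were called. How far the members were lower at 44 °C thus depended on how the spread within groups was handled. The scores were mostly lower at 44 °C, and Cirbp rose along the axis while Rbm3 fell. The covariate was therefore bound to shift the pair in opposite directions. The axis came from the same residual spread that the test uses, so these p-values are too small as well.

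Genes that overlap, copy or adjoin the members could share reads with them. Rbm3os, an antisense gene on the opposite strand (chromosome X, 8145429 to 8147964), overlaps Rbm3 over 452 bases, of which 94 are exonic in both. Read counts were 10, 8, 8 and 3 in the 37 °C group, 2, 2, 7 and 7 in the 40 °C group and 4, 16, 15 and 17 in the 44 °C group, so 3 of 4 libraries at 44 °C lay above all others and replicate 1 lay among them. It did not pass the filter. Without a filter its log2 fold change for 44 °C against 37 °C was 0.88 ± 0.51 (SE, adjusted p = 0.378, with 8.01% of genes called). Whether counting used the strand is not given in the sources used here, so reads in the shared exonic stretch cannot be assigned. Rbm3os and Rbm3-ps were described after their values were seen.

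Rbm3-ps is a processed pseudogene on chromosome 1 (150265535 to 150265999), a copy of Rbm3 mRNA inserted in the genome. Its 465 bases matched an Rbm3 transcript at 462 positions, so its reads may belong to Rbm3. It had between 47 and 80 reads per library, and averaged 3.87 ± 0.266 CPM at 44 °C, against 3.81 ± 0.687 CPM at 37 °C, a log2 fold change of 0.02 (adjusted p = 0.95). With the reads of Rbm3-ps and Rbm3os added to those of Rbm3, the 44 °C value of Rbm3 was −0.12 (adjusted p = 0.268).

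Of the nearest genes that passed the filter, 1 of 4 was called at 44 °C against 37 °C. Among all genes tested, 13.7% were called and 17.8% had groups that did not overlap. Wdr13, a WD repeat protein gene downstream of Rbm3 on the same strand, fell to 12.8 ± 0.471 CPM at 44 °C, against 17.9 ± 0.999 CPM at 37 °C, with no overlap (log2 fold change −0.49 ± 0.091 SE, adjusted p = 0.00375). Tbc1d25, on the other side of Rbm3, had 0.05 (adjusted p = 0.787). Next to Cirbp, Midn, which encodes midnolin, had −0.10 (adjusted p = 0.278) and 1600002K03Rik, which begins 157 bases beyond the end of Cirbp, had −0.11 (adjusted p = 0.726).

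Genes reported to act on CIRBP or RBM3, or to be bound by them, were called about as often as genes in general. Of 18 tested, 2 were higher and 1 was lower at 44 °C, where 6.58% of all genes were higher and 7.11% lower, and the list had a median log2 fold change of 0.07, beside −0.00034 for all genes. Ptgs2, which encodes the cyclooxygenase COX-2 and whose mRNA RBM3 has been reported to stabilise, rose to 142 ± 13.2 CPM at 44 °C, against 83.9 ± 3.10 CPM at 37 °C (0.75 ± 0.071 SE, adjusted p = 2.8e-05). Hsf1, which encodes a transcription factor of the heat shock response, was higher (0.26, adjusted p = 0.0435). Tlr4, whose product is a receptor for extracellular CIRBP, was lower (−0.43, adjusted p = 0.0153). In 44 °C against 40 °C, 1 of the 18 was higher, and in 40 °C against 37 °C none of them was called, as for all genes.

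A further 6 genes of this list, chosen for their roles after their values were seen, did not pass at 44 °C. The promoter factor gene Sp1 had 0.18 (adjusted p = 0.116). Hnrnph1, which acts in temperature-dependent splicing of Rbm3, had 561 ± 52.3 CPM at 44 °C, against 562 ± 33.5 CPM at 37 °C (−0.0025, adjusted p = 0.988). The thioredoxin gene Txn1 (−0.05, adjusted p = 0.452) and the replication protein gene Rpa2 (0.19, adjusted p = 0.128), are both reported targets of CIRBP. Rtn3, a reticulon gene whose translation RBM3 raises in mouse neurons, had −0.08 (adjusted p = 0.255), and the clock activator gene Clock had 0.21 (adjusted p = 0.181). Larger values that did not pass either were those of the kinase gene Dyrk1b (−0.49, adjusted p = 0.299) and the growth factor gene Vegfa (−0.37, adjusted p = 0.124).

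Relatives of the 2 proteins were called at a share near the 13.7% of all genes. Of 17 tested genes with a cold-shock domain or a related RNA recognition motif, 2 were higher and 1 was lower at 44 °C (median −0.02). Rbm18 (0.38 ± 0.060 SE, adjusted p = 0.00146) and the cold-shock domain gene Ybx3 (0.29, adjusted p = 0.0371) rose. Rbmx, a close relative of both members in its RNA recognition motif, fell (−0.51 ± 0.15, adjusted p = 0.0375), with 7.01 ± 0.548 CPM at 44 °C, against 9.99 ± 1.43 CPM at 37 °C. Its relative Rbmxl1, on the same list, had 128 ± 6.18 CPM at 44 °C, against 135 ± 8.35 CPM at 37 °C (−0.08, quasi-likelihood adjusted p = 0.436). The division of reads between Rbmx and Rbmxl1 is uncertain. Of 27 hnRNP genes, which encode nuclear RNA-binding proteins, 3 rose and 1 fell (median 0.04), again near the 13.7% called among all genes. Those that rose were Hnrnpa1 (0.45, adjusted p = 0.0101), Hnrnpm (0.33, adjusted p = 0.0284) and Hnrnpll (0.19, adjusted p = 0.034), and Hnrnph2 fell (−0.26, adjusted p = 0.0351).

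SR proteins and their kinases, which set splice-site choice and respond to temperature, had 1 of 18 genes higher and 1 lower at 44 °C (median 0.04), a share near the 13.7% of all genes. Both were SR protein kinase genes: Srpk1 rose (0.28, adjusted p = 0.0344) and Srpk2 fell (−0.40, adjusted p = 0.00617). Of 16 stress granule genes, 4 rose and none fell (median 0.10), where 6.58% of all genes rose and 7.11% fell. They were the poly(A)-binding protein gene Pabpc1 (0.27, adjusted p = 0.00235), Fmr1 (0.28, adjusted p = 0.0225), the initiation factor gene Eif2s1 (0.35, adjusted p = 0.0227) and Tial1 (0.21, adjusted p = 0.034). CIRBP enters such granules under stress, as background.

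Circadian clock genes, whose mRNAs include reported CIRBP targets, had 7 of 17 lower and 2 higher at 44 °C, where 7.11% of all genes were lower and 6.58% higher (list median −0.40, beside −0.00034 for all genes). The transcription factor gene Dbp fell to 4.98 ± 2.84 CPM at 44 °C, against 18.5 ± 5.41 CPM at 37 °C (−1.89 ± 0.33 SE, adjusted p = 0.00245). The period gene Per2 fell (−1.11 ± 0.18 SE, adjusted p = 0.00167), as did the repressor gene Nr1d2 (−0.26, adjusted p = 0.00375). The activator gene Arntl rose (0.32, adjusted p = 0.00615). In 40 °C against 37 °C no clock gene was called, and in 44 °C against 40 °C 1 was higher. Their relation to Cirbp was not tested.

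**Figure D4:**
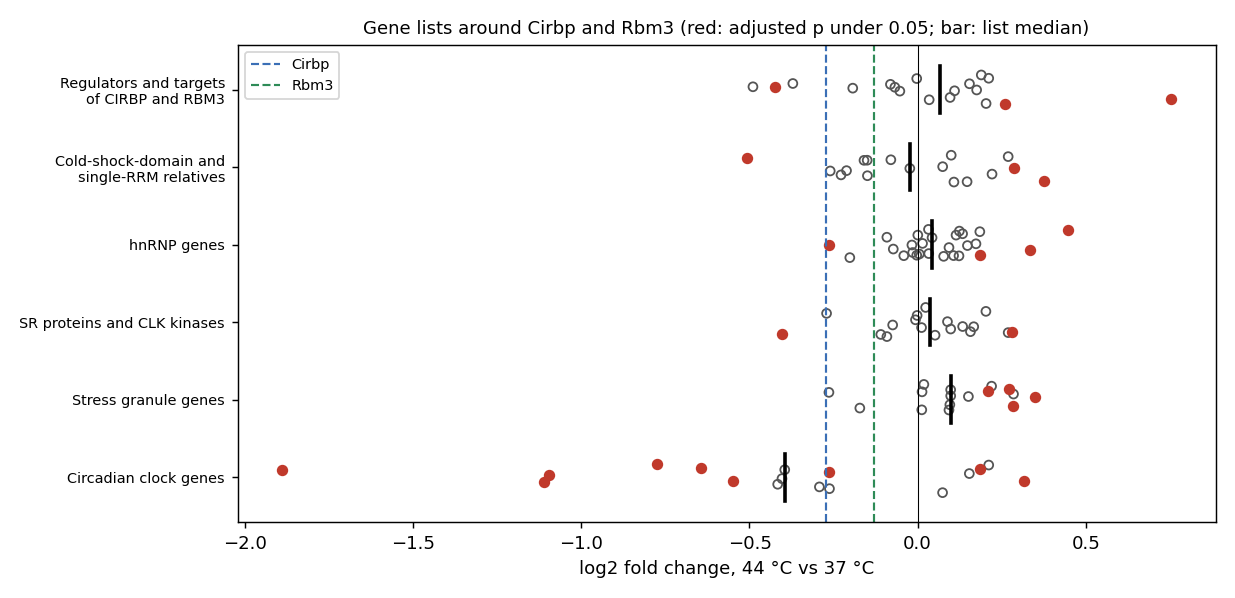
Log2 fold changes at 44 °C against 37 °C for genes of 6 lists around Cirbp and Rbm3; red symbols passed an adjusted p of 0.05, black bars give list medians, and dashed lines give Cirbp (−0.27) and Rbm3 (−0.13). The clock list has its median at −0.40 and the other medians lie between −0.02 and 0.10.

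The genes whose levels ran most like those of the members over the 12 libraries differed between the pair. They were ranked by Pearson r of log2 CPM among 10033 genes with a mean of at least 5 CPM, as a description. Closest to Cirbp were Cpeb4, a gene of a cytoplasmic polyadenylation element-binding protein (r = 0.957), the polyamine acetyltransferase gene Sat1 (0.956), the transporter gene Abcd4 (0.953), Fsd1l (0.948) and Oplah (0.939). The lowest r with Cirbp were those of Ptpn11, a tyrosine phosphatase gene (−0.974), Tpst2 (−0.968) and Isg20l2 (−0.952). Closest to Rbm3 were the kinase gene Tlk1 (0.937), the ribosomal protein gene Rps13 (0.933), the mitochondrially encoded gene mt-Nd1 (0.919), Slmap (0.914) and the SR protein gene Srsf5 (0.914). The lowest with Rbm3 were the transcription factor gene Maff (−0.933), Fam171a1 (−0.933) and Arrdc2 (−0.921). By deviations from the group means, Cirbp ran closest to Trib2 (0.985), Lgi2 (0.982) and Scn8a (0.981), and Rbm3 to the histone chaperone gene Nasp (0.978), the proteasome ATPase gene Psmc1 (0.976) and Hnrnpa2b1 (0.975).

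Of the 5 genes closest to each member by r of log2 CPM, none was called at 44 °C against 37 °C, where 13.7% of all genes were. They were picked on these same libraries for running like members that were not called, so few calls were to be expected. Among those closest by deviations, Trib2, a pseudokinase gene (−0.67, adjusted p = 0.00264), and Lgi2 (−0.47, adjusted p = 0.0226) fell at 44 °C. Of all genes tested, 7.11% were lower in that comparison. Srsf5 had 207 ± 21.9 CPM in the 44 °C libraries, against 249 ± 7.86 CPM in those of 37 °C (log2 fold change −0.27 ± 0.089 SE, adjusted p = 0.0574). By r with Cirbp, Rbm3 ranked 6304 of 10033, and by r with Rbm3, Cirbp ranked 7642.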

How the data were processed

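The authors deposited raw counts per gene with 1 column per sample. HISAT2 2.0.5, featureCounts 1.5.0-p3, StringTie 1.3.3b, fastp and the mm10 build are named in the submitters' processing notes, without role or order. Whether counting used strand or multi-mapped reads is not given in the sources used here.

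Counts were analysed with edgeR 4.0.16 in R 4.3.3. Genes were kept by filterByExpr (minimum count 10, minimum total 15), scaled by TMM, and fitted with 1 mean per temperature over all 12 libraries. Two-sided quasi-likelihood F-tests were adjusted by Benjamini-Hochberg over 14424 genes and called at an adjusted p under 0.05. SE is the log2 fold change over the square root of F. Replicate pairs of a group gave chi-square values per gene between 2.85 and 20.9, so none was a copy. DESeq2 1.42.0, other scalings, no filter, a replicate block, axis covariates and left-out libraries were alternatives. Correlations used 100000 permutations or all 13824 orders within groups. Log2 CPM had a prior count of 2. The fitting script was tested on simulated data.

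Promoter windows are RefSeq's (GRCm38.p6), where 1 of 2 members matched by symbol. No protein sequence was used. The members and lists were chosen with earlier results of these data known. The genes named were both members, heat shock genes, nearest neighbours, list members called at 44 °C against 37 °C (at most 4 per list, by p) and the genes with the highest and lowest r. Others, chosen after their values were seen, are Rbm3os, Rbm3-ps, Bag3, the list genes named without a call, Cd68, Krt18 and low-count markers. Counting error sets intervals only in part, and depth per library is given with the results.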

Additional observations from a re-analysis of the deposited data

Results flagged for a closer look

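In Rbm3os, the antisense gene that overlaps the 5′ part of Rbm3, single libraries stood far from the others of their group. At 44 °C, replicate 1 had 0.234 CPM, where the other 3 libraries had between 0.878 and 0.972 CPM. At 37 °C, replicate 4 had 0.179 CPM, where the other 3 had between 0.472 and 0.504 CPM. These values rest on 4 and 3 reads. In all, 33 groups of 4 libraries were checked for 11 genes, and chance sets about 1 in 20 such groups apart. Neither Cirbp nor Rbm3 had a library that stood apart in this way.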

How the results depend on the processing

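For Cirbp and Rbm3 in the comparisons between pairs of temperatures, 117 of 123 values under the alternatives kept their direction and their side of the threshold. The tests over 3 temperatures were counted apart, and there 18 of 20 values of Cirbp and 19 of 21 of Rbm3 kept their side. With the axis scores free of group differences, the values passed for Cirbp at 44 °C (−0.29) and 40 °C (−0.41) against 37 °C, for Rbm3 at 44 °C (−0.13), and over 3 temperatures for Cirbp (adjusted p = 0.00181) and Rbm3 (0.0338). With scores that kept those differences, Rbm3 passed at 44 °C (−0.21) and both passed over 3 temperatures (adjusted p = 0.0332 for Cirbp and 0.0022 for Rbm3). The axis came from the residual spread that the tests use, so the p-values of both fits are too small. The cause was not tested. With each library left out in turn, Cirbp lay between −0.43 and −0.17 for 44 °C against 37 °C, passing without 44 °C replicate 1 alone. Between 44 °C and 40 °C it lay between −0.022 and 0.24, turning sign without that library. Rbm3 lay between −0.18 and −0.08 for 44 °C against 37 °C. The correlation of Cirbp with Rbm3 was −0.756 on deviations, where no library was left out. With the group means left in it was −0.336, and −0.453 to −0.135 with a library left out. Replicate numbers were not treated as pairs in the main fit, and whether they pair libraries was not settled. The r of deviations lay between −0.207 and 0.366 for the 12 same-numbered pairs. Of these pairs, 3 had an r over 0.1. In 7 of 24 cases, each a choice among the 4 libraries of another group, a library correlated best with its own number. With a replicate block, Cirbp had −0.28 (adjusted p = 0.112), Rbm3 −0.13 (0.224) and 2557 genes were called. The SE of Cirbp was 0.12 with the block and 0.16 in the main fit.

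The background of called genes moved more. For 44 °C against 37 °C it was 1975, 5034 with the axis (3146 with group differences kept), 630 at a threshold of 0.01, and 979 to 3355 with a library left out. It moved by over 1.5 times without 37 °C replicates 1 (979), 2 (1156) or 4 (1063) and 44 °C replicates 1 (3355), 2 (980) or 4 (1062). For 40 °C against 37 °C it was 0, 596 with the axis (11 with group differences kept), 13 without the filter, 4 with DESeq2, and 0 to 1 with a library left out, the 1 without 44 °C replicate 1. For 44 °C against 40 °C it was 724, 3217 with the axis (2535 with group differences kept), 1211 with DESeq2, 334 with only those groups, 270 at 0.01 and 394 to 1265 with a library left out. There it moved without 40 °C replicates 1 (394), 3 (421) or 4 (420) and 44 °C replicates 1 (1265), 2 (426) or 4 (456). Over 3 temperatures it was 1184, and 562 to 2125 with a library left out, moving without 37 °C replicates 1 (742), 2 (698) or 4 (678) and 44 °C replicates 1 (2125), 2 (562), 3 (725) or 4 (609).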
